A study of Mus musculus with 48 samples.

Results

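The genes of DNA replication licensing and synthesis described here are 51 genes taken from a list of symbols. They are 51 of the 20622 genes with cytoplasmic RNA counts, and each of them also had one of the 16269 transcripts counted for ribosome-protected fragments (RPFs), which are what is left of an mRNA under a ribosome after nuclease digestion. They were read in livers of male mice aged 2 to 4 months and of mixed C57BL/6 background, and each mouse was a separate sample that gave an RPF library and a library of cytoplasmic RNA. The 4 genotypes were Wild-type (WT), Ctnnb1ex3/+ (B), R26-LSL-MYC (M) and Ctnnb1ex3/+; R26-LSL-MYC (BM), with 3 mice each at day 4 and at day 10, which made 24 mice and 48 libraries. All mice, WT included, received AAV8.TBG.Cre, a virus that expresses Cre recombinase from the TBG promoter. That promoter is active in hepatocytes, so the alleles of the other liver cells are left as they were, while the powdered tissue held all liver cells. Loss of exon 3 from 1 Ctnnb1 allele leaves a β-catenin that escapes degradation, and removal of the stop cassette at Rosa26 (R26) lets a MYC transgene be expressed. RPF libraries held 9742197 to 14380713 counts (median 12503695) and RNA libraries 3254141 to 6540116 (median 5077216), with the BM livers of day 10 lowest in RNA depth. Values per mouse are CPM (counts divided by the TMM-scaled library size), listed in the order of mouse 1, 2 and 3, and a gene was called higher or lower at an adjusted p under 0.1 by edgeR's quasi-likelihood test over all genes tested. Translation efficiency (TE) compares the RPFs of a gene with its cytoplasmic RNA.

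Before a cell can copy its DNA, the origin recognition complex (Orc1 to Orc6) binds origins, and Cdc6 and Cdt1 load the ring-shaped MCM helicase (Mcm2 to Mcm7) onto them, which is the licensing step that Gmnn (geminin) holds back. The kinase Cdc7 with its partner Dbf4, Cdc45, the GINS complex and Mcm10 then turn the loaded ring into a moving helicase, and the polymerases, the clamp Pcna, its loader and the single-strand binding protein RPA copy the strands. Most hepatocytes of an adult liver are out of the cell cycle and keep these genes low, and E2F transcription factors, held by the pocket proteins until late G1, are known activators of many of them.

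The E2F sites written below stand in promoters of licensing, helicase, ligase and methylation genes whose RPF values are given further on, and are shown because this letter pattern was far more frequent in the member promoters than in all promoters. Promoters were taken from RefSeq on GRCm38.p6, from 250 bases before to 50 after each start, and the table held 43 of the 51 genes. The capitals mark 1 of the letter patterns TTTGGCGC, TTTCCCGC, TTTCGCGC or TTTGCCGC, or its reverse complement where the site lies on the other strand.
Mcm3 (chr1:20820275-20820304, minus strand): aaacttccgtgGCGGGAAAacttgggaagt
Mcm5 (chr8:75109345-75109374, plus strand): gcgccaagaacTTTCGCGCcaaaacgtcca
Mcm6 (chr1:128359797-128359826, minus strand): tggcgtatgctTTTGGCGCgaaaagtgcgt
Mcm7 (chr5:138172030-138172059, minus strand): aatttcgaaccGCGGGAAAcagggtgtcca
Orc1 (chr4:108579416-108579445, plus strand): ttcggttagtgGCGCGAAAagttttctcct
Cdc6 (chr11:98908002-98908031, plus strand): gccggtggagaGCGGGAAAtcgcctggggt
Lig1 (chr7:13278841-13278870, plus strand): cgccaaagtgcGCGCGAAAtctgtgtggcg
Uhrf1 (chr17:56304117-56304146, plus strand): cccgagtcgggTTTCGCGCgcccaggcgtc
On either strand, 17 of the 43 genes (39.5%) had such a site, against 2.61% of the 27025 genes in the table. The E-box CACGTG, the letters that MYC with its partner Max is known to bind, was found for 8 (18.6%), against 8.09%. The CHR letters TTTGAA or TTCGAA were found for 10 (23.3%), against 21.7%, and CCAAT for 26 (60.5%), against 41.1%. None of these patterns holds another within its letters, and a match is a description of the sequence, not evidence that a factor bound there.

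The libraries were set against their genotypes before the replication genes were compared. Glul, a β-catenin target, stood at 850.1, 862 and 825 RPF CPM in WT and 3641, 4208 and 4161 in BM at day 4, and Axin2, another, at 2.85, 3.52 and 3.39 and 27.6, 28.4 and 23.6, so that the BM mice lay far above WT. At day 10 the BM mice had 26.8, 10.5 and 6.2 Axin2 RPF CPM, highest in mouse 1, and 58, 122 and 164 Myc RPF CPM, lowest in mouse 1. Counts per gene cannot show the loss of an exon, so Ctnnb1 was no check. Within groups, mouse 1 of BM at day 4 had the most RPFs for 47 of the 51 genes, mouse 3 of M at day 10 for 45 and mouse 1 of BM at day 10 for 36. The RPF calls against WT at day 10 are given with and without those day 10 mice, and ranges of calls without single mice are given at the end. Of 8 hepatocyte markers, each was detected in all groups, and the summed RPF CPM of the 8 was 92900 to 105200 in WT and 51990 to 60470 in BM at day 4. Fewer cells of a type and less RNA per cell cannot be told apart in such bulk samples.

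At day 4, RPFs of the replication genes were higher in BM than in WT nearly throughout. The summed RPFs of the 51 genes were 521, 548 and 538 CPM in the WT mice and 2210, 1452 and 1594 in the BM mice, so that the groups were well apart. Of the 51 genes, 49 were called higher and 0 lower, and the 2 others, Orc2 and Orc4, had log2 changes of 0.33 ± 0.19 and 0.05 ± 0.14 (SE, 3 mice per group). Over all 11375 genes tested, 26.2% were called higher, and the median log2 change was 1.86 for the replication genes (1.77 with Orc1 and Cdc7 at their lower bounds) against 0.00 for all genes. Each of the 10 functional groups had at least 1 member called higher. The filter on low counts was passed in BM only by 10 of the 51 (Cdc45, Cdc6, Cdc7, Chaf1a, Dbf4, Gins2, Gins3, Orc1, Pole2 and Uhrf1). Genes let in that way were selected by their higher BM counts, so below they are given by their values, with no p. Of the 41 genes that WT livers carried past the filter, 39 were called higher. Markers of other liver cells moved as well: 7 of 8 Kupffer cell and macrophage markers, 6 of 8 endothelial, 5 of 8 stellate and 8 of 8 hepatocyte markers were called lower in BM at day 4, against a background of 24.7% lower, and none of these 4 lists had a member called higher. Of the erythroid markers, 1 of 4 tested was called higher and 3 lower. Their part in the rise of the replication genes was not tested.

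In M at day 4, 48 genes were tested and 43 were called higher (background 18.5%), with a median log2 change of 1.04 and 0 called lower. In B, 45 were tested and 15 were called higher (background 6.21%), with a median of 0.40 and again 0 lower. Of the 41 genes that WT livers alone carried past the filter, 37 were called in M and 14 in B. In M at day 4, 7 of 8 hepatocyte, 4 of 8 endothelial, 2 of 8 stellate, 1 of 8 Kupffer cell and macrophage and 4 of 4 erythroid markers tested were called lower and none of them higher, against 14.7% of all genes lower. In B, 2 of 8 hepatocyte markers, 1 of 8 each of the stellate and the Kupffer cell and macrophage markers and 1 of 4 cholangiocyte markers tested were called lower. Of the neutrophil markers, 2 of 3 tested were called lower in B, 2 of 2 in M and 2 of 3 in BM, and of 4 cholangiocyte markers 2 were lower in M and 3 in BM. The part of these shifts in the M and B changes was not tested. The 15 called in B were all 6 MCM subunits together with Uhrf1, Pole, Lig1, Rrm2, Prim1, Pold2, Rpa1, Orc5 and Rrm1, and the count fell to 8 without WT mouse 1 and to 9 without WT mouse 3 of that day. The heat map of the 51 genes by mouse shows this order of the genotypes and the gap between days.

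**Figure D1:**
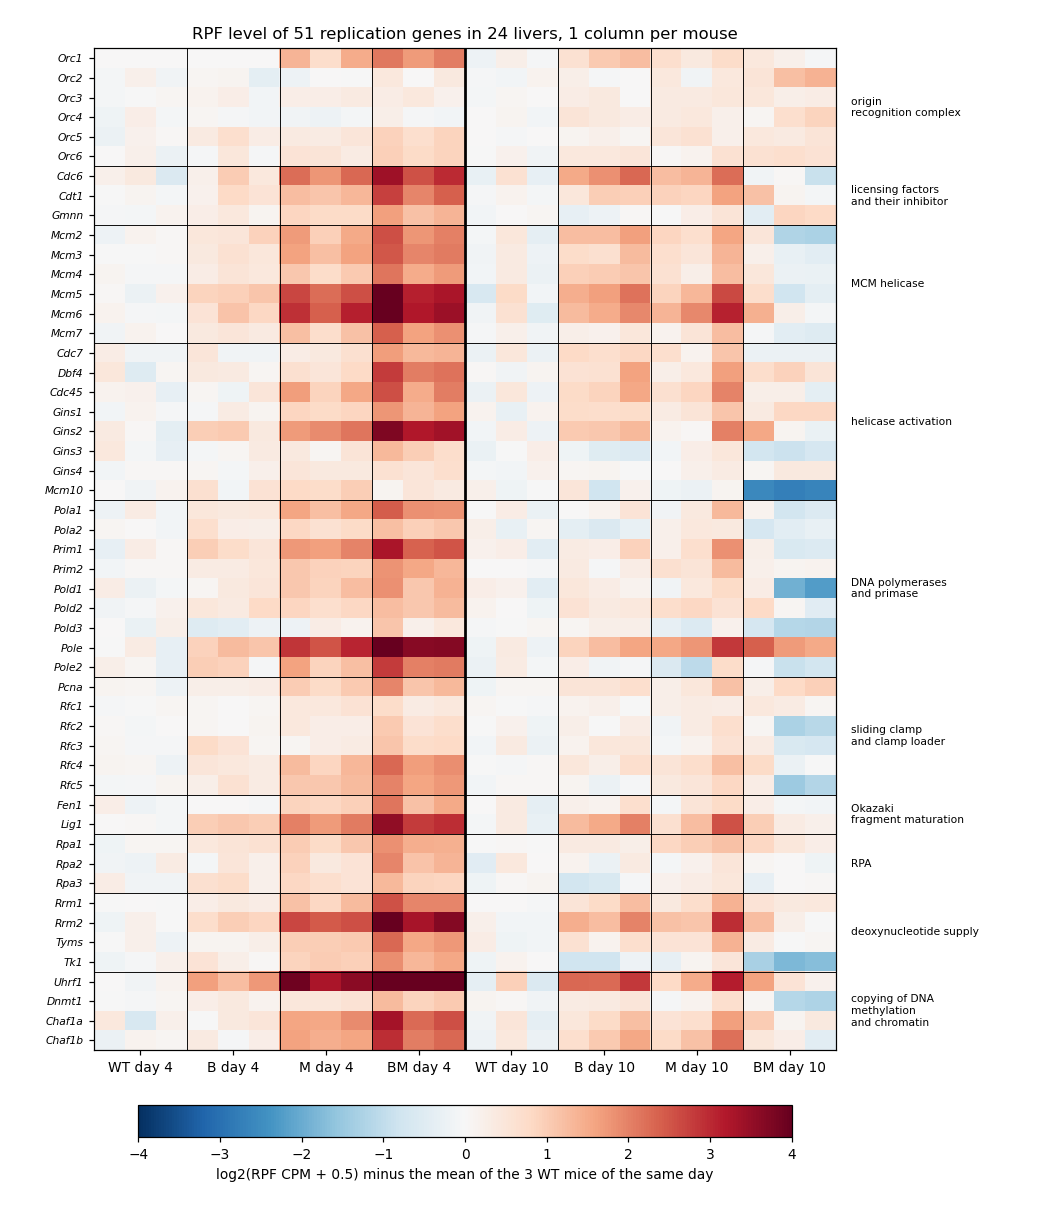
Each column is 1 of 24 mice and each row 1 of the 51 genes, ordered by role. Colour gives log2(RPF CPM + 0.5) minus the mean of the 3 WT mice of the same day, from blue (lower) to red (higher). At day 4 most rows deepen from B to M to BM, where 49 of 51 genes were called higher, and at day 10 the BM columns are mixed, with 10 called higher and 3 lower.

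The origin recognition complex was the functional group with the smallest median change, 0.60 on the log2 scale. Orc1, its subunit that varies over the cell cycle, had no RPF count in any WT mouse of day 4, and the BM mice had 1.65, 1.11 and 1.59 CPM. With the WT group set to 3 counts per library, that was at least 4.45-fold higher. Orc3, Orc5 and Orc6 were called higher in BM, at log2 changes of 0.32, 0.87 and 0.94, while Orc2 and Orc4 were not called in BM, M or B at day 4.

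Of the licensing step and its inhibitor, the 2 genes that WT carried past the filter, Cdt1 and Gmnn, were called higher in BM and in M. Cdc6, the loader of the MCM ring, passed the filter in M and in BM only, and had 0.368, 0.486 and 0 RPF CPM in WT, 3.07, 2.07 and 3.18 in M and 7.46, 3.93 and 5.49 in BM. Each M mouse was above each WT mouse and each BM mouse above each M mouse, with log2 changes against WT of 3.25 ± 0.51 in M and 4.28 ± 0.48 in BM. Its partner Cdt1 rose by 2.60 ± 0.23 and the inhibitor Gmnn by 1.47 ± 0.14 in BM.

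The 6 subunits of the MCM helicase were called higher in each of the 3 genotypes at day 4. Mcm2 had 5.15, 6.68 and 6.22 RPF CPM in WT, 8.46, 8.49 and 11.8 in B, 20.8, 12.1 and 18.1 in M and 38.1, 21.4 and 25.9 in BM. Mcm5 had 4.97, 4.01 and 5.43 in WT, 9.2, 9.61 and 10.9 in B, 32.8, 24.1 and 30.9 in M and 82.6, 44.9 and 50.4 in BM. Mcm6 had 10.0, 8.74 and 8.71 in WT, 13.7, 20.6 and 16.8 in B, 72.9, 50.3 and 82.8 in M and 160.5, 89 and 102 in BM. For all 3 subunits the groups stood in the order WT, B, M and BM with no overlap between neighbours. Mcm5 and Mcm6 were the subunits with the largest changes in BM, 3.64 ± 0.24 (adjusted p = 9.73e-07, edgeR) and 3.69 ± 0.21 (adjusted p = 3.5e-07), which is 12.5- and 12.9-fold. The other subunits rose by 2.28 (Mcm2), 2.27 (Mcm3), 1.86 (Mcm4) and 2.03 (Mcm7) on the log2 scale. In M the range over the 6 was 1.02 to 2.93, where Mcm6 rose most (2.93 ± 0.18, adjusted p = 1.77e-05), and in B it was 0.41 to 1.02, where Mcm5 rose most (1.02 ± 0.16, adjusted p = 0.00297).

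**Figure D2:**
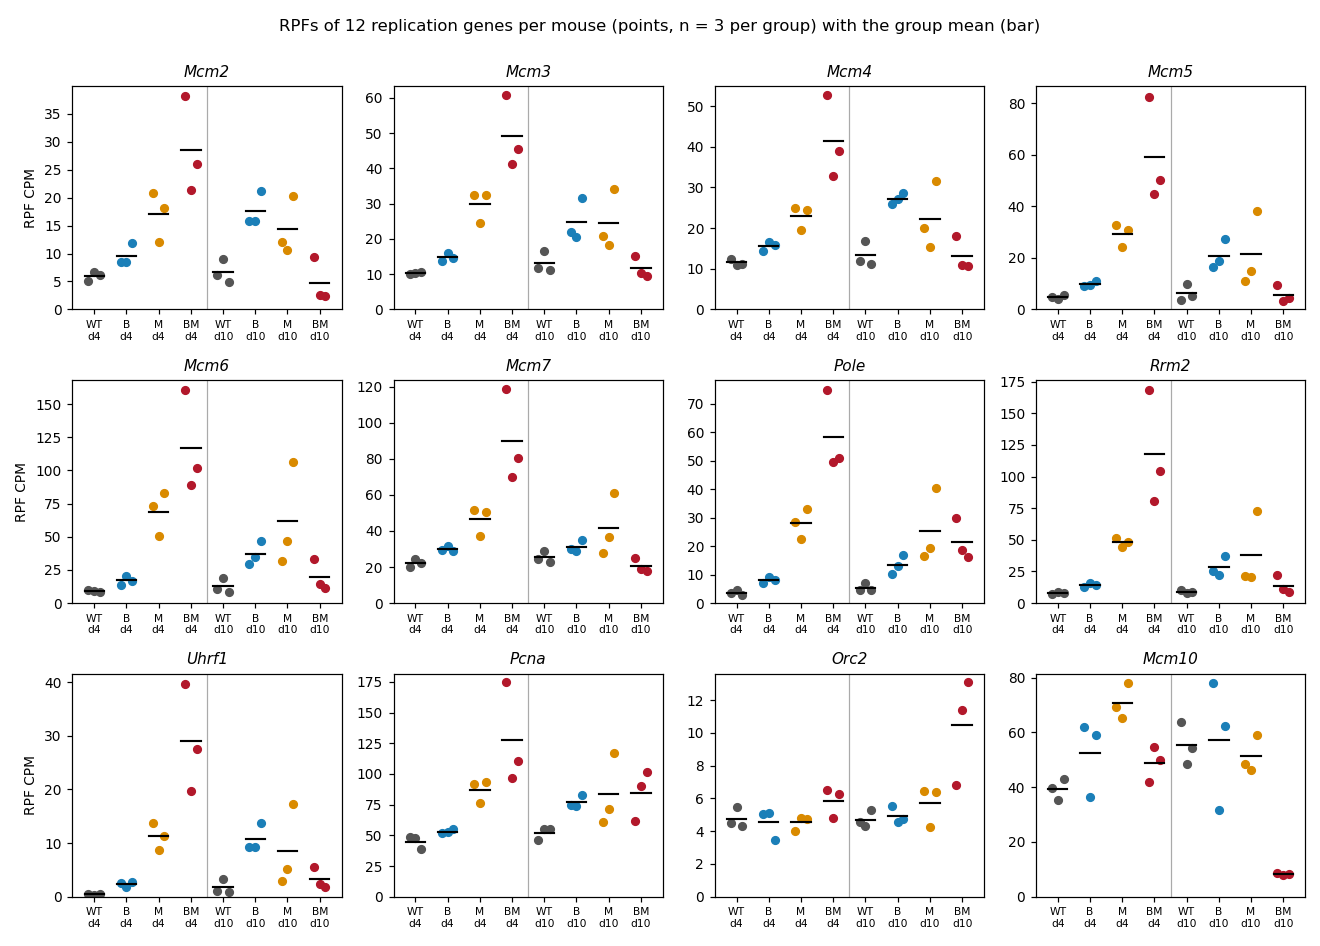
Points are the RPF CPM of single mice for 12 of the 51 genes, 3 mice per genotype and day, and bars are group means. The left part of each panel is day 4 and the right part day 10. The 6 MCM subunits, Pole, Rrm2 and Uhrf1 climb in steps to BM at day 4, and Orc2 and Mcm10 stand out in BM at day 10, Orc2 by its high and Mcm10 by its low values.

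Among the 8 factors that activate the helicase, 3 passed the filter through WT (Gins1, Gins4 and Mcm10), and all 3 were called higher in BM (background 26.2%) and in M (background 18.5%) and 0 in B. The other 5 passed in BM only, where they were high. Of those, Gins2, a subunit of the GINS complex, had 0.736, 0.486 and 0.226 RPF CPM in WT and 12.3, 8.26 and 9.4 in BM, a log2 change of 4.32 ± 0.31 with no overlap. The log2 change of Gins3 was 1.56, that of Cdc45, which joins GINS on the helicase, 2.51 ± 0.36, and that of Dbf4, the partner of Cdc7, 2.67 ± 0.32. Gins1 and Gins4 rose by 1.74 and 0.64. Cdc7 itself was at or under 3 counts in each WT mouse, and BM was at least 3.13-fold higher. Mcm10, which helps to start the helicase, changed least of this group in BM (0.34 ± 0.12) and had 39.8, 35.2 and 42.9 RPF CPM in WT and 41.9, 54.7 and 49.9 in BM, where the highest WT and the lowest BM mouse overlapped.

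The polymerases were led by Pole (chromosome 5, 110434172 to 110486287, GRCm39), the catalytic subunit of polymerase ε, which copies the leading strand. Pole had 3.5, 4.62 and 2.71 RPF CPM in WT, 7.17, 9.14 and 8.17 in B, 28.6, 22.5 and 33.2 in M and 74.8, 49.6 and 51.1 in BM, and no mouse of one genotype overlapped the next. Its log2 change was 1.17 ± 0.20 in B (adjusted p = 0.00512, edgeR), 3.0 ± 0.20 in M (adjusted p = 2.44e-05) and 4.05 ± 0.21 in BM (adjusted p = 2.04e-07). Of this group, the 8 genes that WT carried past the filter were all called in BM, where Prim1, the catalytic primase subunit, rose by 2.97 and Pola1, the catalytic subunit of polymerase α, by 2.12. Pold1, the catalytic subunit of polymerase δ, rose by 1.56, and its accessory subunit Pold3 rose least, by 0.67 ± 0.24.

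Pcna, the sliding clamp, had 48.5, 47.7 and 38.7 RPF CPM in WT and 175, 96.8 and 110.5 in BM, which did not overlap, a log2 change of 1.52 ± 0.19 (adjusted p = 7.43e-05, edgeR). The clamp loader subunits rose unequally, from 0.54 for Rfc1, the large subunit, to 2.09 for Rfc4. Of the genes that finish the lagging strand, the ligase Lig1 rose by 3.40 ± 0.23 and the flap nuclease Fen1 by 1.77 ± 0.26. In B, Lig1 had 5.24, 5.69 and 5.28 CPM against 2.48, 2.55 and 2.26 in WT, again without overlap (1.13 ± 0.18, adjusted p = 0.00347), and Fen1 had a change of -0.05 ± 0.20 that was not called. The RPA subunits rose by 1.61 (Rpa1), 1.60 (Rpa2) and 1.07 (Rpa3) in BM.

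Deoxynucleotide supply was led by Rrm2 (chromosome 12, 24757811 to 24764145, GRCm39), the regulated subunit of ribonucleotide reductase. It had 6.81, 8.99 and 7.58 RPF CPM in WT, 13, 15.7 and 14.5 in B, 51.8, 44.5 and 48.6 in M and 168, 80.9 and 105 in BM, in 4 steps with no overlap. The log2 changes were 0.88 ± 0.14 in B (adjusted p = 0.00386, edgeR), 2.67 ± 0.12 in M (adjusted p = 7.75e-06) and 3.95 ± 0.26 in BM (adjusted p = 8.1e-07). Its partner Rrm1 rose by 2.22 in BM, Tyms, which makes thymidylate, by 1.95, and the thymidine kinase Tk1 by 1.66.

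Uhrf1, which brings the methyltransferase Dnmt1 to newly copied DNA, had the largest change of the genes with more than 3 counts in at least 1 WT mouse. It lies on chromosome 17, 56610275 to 56630489 of GRCm39. It had 0.46, 0.364 and 0.565 RPF CPM in WT, 2.48, 1.77 and 2.72 in B, 13.7, 8.74 and 11.3 in M and 39.6, 19.7 and 27.5 in BM, with no overlap. Its log2 changes were 2.28 ± 0.34 in B, 4.59 ± 0.29 in M and 5.95 ± 0.36 in BM, and in each of these comparisons it passed the filter only through the mutant group. Dnmt1 started from 19.3 to 21 CPM in WT and rose by 1.11 ± 0.11 in BM, and Chaf1b, a subunit of the chromatin assembly factor CAF-1, rose by 2.86. Its partner Chaf1a, let in through BM only, had a log2 change of 3.17.

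BM was also compared with M directly. At day 4, 42 of 51 genes were called higher in BM than in M and 1 was called lower, against 18.8% higher and 19.3% lower over all genes, and the median log2 difference was 0.75. Without Cdc7, Gins3 and Orc1, which passed the filter in BM only, 39 of 48 were called higher. In the same comparison 7 of 8 Kupffer cell and macrophage, 6 of 8 hepatocyte, 3 of 8 stellate and 2 of 8 endothelial markers were called lower in BM and none of them higher, and their part in the difference was not tested. Rrm2 was 1.27 ± 0.22 higher in BM than in M, and Uhrf1 1.35 ± 0.24 higher. Mcm10 was the gene called lower, with 69.1, 65.2 and 77.9 RPF CPM in M and 41.9, 54.7 and 49.9 in BM, which did not overlap (-0.55 ± 0.11, adjusted p = 0.00532, edgeR). A contrast over the 12 mice of day 4 asked if the log2 change in BM was more or less than those in B and M added together. Only 5 of 51 genes were called above the sum and 1 below it, with 8.40% and 11.3% over all genes, so the share called above was near the background and the share called below was under it. Those above were Dbf4 (1.68 ± 0.46), which passed the filter in mutant groups only, Pold3 (0.96 ± 0.34), Rrm1 (0.75 ± 0.22), Tyms (0.73 ± 0.24) and Gins1 (0.63 ± 0.23), and the one below was Mcm10 (-0.96 ± 0.23). This count was 2 without WT mouse 1, 3 without B mouse 1 or without M mouse 1, and 11 without BM mouse 2 of day 4. In that contrast 4 of 8 hepatocyte, 4 of 8 stellate, 2 of 8 Kupffer cell and macrophage and 1 of 8 endothelial markers were called below the sum and none above. Of 3 neutrophil markers tested 2 were above and 0 below, and of 4 erythroid markers 1 and 1. Their part was not tested.

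The cytoplasmic RNA of the same livers gave fewer calls than the RPFs at day 4. In BM, 38 of the 47 genes tested were called higher and 0 lower (background 21.3%), with a median log2 change of 1.06. Of these, 8 genes (Cdt1, Chaf1a, Chaf1b, Gins2, Gmnn, Lig1, Pold1 and Uhrf1) passed the filter in BM only, where they were high, and 30 of the 39 others were called. In M, 25 of 45 were called higher (background 13.5%), or 20 of 39 without the 6 genes let in through M, and in B, 2 of 41 (background 4.41%), namely Rpa3 (0.75 ± 0.21) and Mcm10 (0.60 ± 0.19). That share in B was near the background, and the count was 0 without WT mouse 1. Between BM and M, 25 of 48 genes were called higher in RNA and 1, Mcm10, lower (backgrounds 14.6% and 15.9%). Those 26 calls fell to 16 without M mouse 2 and to 15 without BM mouse 1 of day 4. Against the changes in B and M added together, the BM change in RNA was called above for 5 of 48 genes and below for 1 (backgrounds 5.56% and 7.27%), 6 calls that became 3 without M mouse 1 or BM mouse 1.

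Uhrf1 had the largest RNA change in BM among genes with more than 3 RNA counts in at least 1 WT mouse, with 0.446, 0.88 and 0.48 RNA CPM in WT, 7.8, 4.32 and 6.67 in M and 19.4, 11.3 and 8.74 in BM. It passed the RNA filter only through M or BM, as did Gins2 and Lig1, and Chaf1a only through BM. Its log2 changes were 3.30 ± 0.43 in M and 4.40 ± 0.45 in BM. Gins2 had 0.223, 0.66 and 1.2 RNA CPM in WT, 2.85, 2.09 and 3.78 in M and 10.4, 3.12 and 6.24 in BM, changes of 2.01 ± 0.49 and 3.24 ± 0.56. For both genes each M and each BM mouse lay above each WT mouse. Lig1 had 2.45, 1.76 and 2.4 in WT, 9.52, 6.71 and 9.79 in M and 20.2, 15.6 and 14.1 in BM, changes of 1.95 ± 0.28 and 2.91 ± 0.25. Chaf1a had 0.892, 0.44 and 0.48 in WT and 4.9, 3.98 and 4.64 in BM (2.85 ± 0.39), and Rrm2 10.0, 15.8 and 20.7 and 108, 54 and 66.2 (2.3 ± 0.26, adjusted p = 1e-05, edgeR). None of these groups overlapped WT. Gins2, Lig1 and Chaf1a share exon bases with genes on the opposite strand, and whether RNA was counted by strand is not given in the sources used here.

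In M, Mcm5 RNA had 4.46, 8.8 and 6.97 CPM in WT and 16, 14.5 and 20.2 in M (1.31 ± 0.23, adjusted p = 0.00132, edgeR), and Mcm6 17.8, 22.2 and 23.8 and 54.2, 38.3 and 64.7 (1.29 ± 0.18, adjusted p = 0.000266), both without overlap. In B, Rpa3 RNA was 5.57, 5.94 and 7.69 CPM in WT and 11.8, 11.2 and 9.23 in B (adjusted p = 0.0554), also apart. Cdt1 and Cdc6 had at most 2 RNA counts in each WT mouse, and with WT set to 3 counts per library they were at least 6.29-fold and 4.06-fold higher in BM and at least 3.74-fold and 2.49-fold higher in M.

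Of the 47 genes tested in both libraries in BM at day 4, 42 had a larger change in RPFs than in RNA, and of the 44 in M, 37. A like lean was seen in M at day 10 (37 of 43, 6 the other way). It was also seen in WT at day 10 against WT at day 4 (31 of 40, 8 the other way). Neither of those had a replication gene called for TE, and the share over all genes is not given here. The interaction of genotype and library type was called for 12 of the 47 in BM, all towards more RPFs per RNA, against 1.71% of all genes called TE up. In M, 9 of 44 were called (background 0.884%), and all 9 were among the 12. In B, 0 of 40 were called by edgeR or by DESeq2, with 9 at an unadjusted p under 0.05, where 2.83% of all genes were (background of TE up 0.0293%), and 1 was called when both libraries of a mouse were paired as a replicate block, with 0.274% of all genes. The 12 were 5 of the 6 MCM subunits, Cdc45 and Gins3 of the active helicase, Pole and Pola1 of the polymerases, Fen1, Rrm1 and Rrm2. Cdc45 and Gins3 passed the RPF filter in BM only, and of the 36 genes that WT carried past both filters 10 were called in BM and 9 in M. Cdc45 and Fen1 were called in BM and tested without a call in M, where Gins3 was not tested, and between BM and M no member was called (edgeR or DESeq2, 2 of 48 at an unadjusted p under 0.05 against 5.09% of all genes, and 1 called when paired against 2.12%).

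Mcm2 shows this pattern plainly. Its RNA was 15.8, 26.8 and 21.1 CPM in WT and 28.3, 23.2 and 29.4 in BM, a log2 change of 0.34 ± 0.17, while its RPFs rose by 2.28 ± 0.21, and the TE change was 1.92 ± 0.31 (adjusted p = 0.00284, edgeR). Mcm3 had 21.2, 34.7 and 36 RNA CPM in WT and 46, 34.3 and 44.9 in BM, against 10.1, 10.2 and 10.7 and 60.7, 41.4 and 45.5 RPF CPM. Its TE change was 1.81 ± 0.26 (adjusted p = 0.00138). Pole had 8.7, 13.4 and 12 RNA CPM in WT and 52, 35.3 and 38.7 in BM, an RNA change of 1.89 ± 0.18 under an RPF change of 4.05, and a TE change of 2.15 ± 0.33 (adjusted p = 0.00183). For these 3 genes the RPF groups were apart and the RPFs rose beyond the RNA.

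Cdc45 had 5.8, 9.46 and 8.41 RNA CPM in WT and 9.16, 6.24 and 9.99 in BM, where RPFs went from 1.29, 1.34 and 0.791 to 9.11, 4.0 and 6.22, and its TE change was 2.39 ± 0.47. Gins3 had 13.4, 17.8 and 15.4 RNA CPM in WT and 14.7, 11.3 and 16.2 in BM, and a TE change of 1.69 ± 0.46. The TE changes of the other 7 called genes were 1.66 (Mcm6), 1.66 (Mcm5), 1.64 (Rrm2), 1.46 (Mcm4), 1.43 (Fen1), 1.39 (Pola1) and 1.11 (Rrm1). Cdc45 shares 211 exon bases with Ufd1 and Fen1 shares 225 with Tmem258, both on the opposite strand, so their RNA and TE values are uncertain. Mcm7, the remaining MCM subunit, had a TE change of 0.81 ± 0.27 that was not called (adjusted p = 0.232, edgeR). It shares 348 exon bases with Ap4m1 and 344 with Cops6 on the opposite strand, so its RNA and TE values are uncertain too. Cdt1 had the opposite sign in BM, a TE change of -2.12 ± 0.87 that was not called, with at most 1 RNA count in each WT mouse.

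In M, Pole, Mcm6, Mcm3, Mcm2 and Rrm2 led. Pole RNA was 25.1, 21.9 and 27.4 CPM in M, and its TE change was 1.88 ± 0.29 (adjusted p = 0.00356, edgeR). Mcm6 RNA was 17.8, 22.2 and 23.8 in WT and 54.2, 38.3 and 64.7 in M, with a TE change of 1.64 ± 0.30 (adjusted p = 0.014), and Rrm2 RNA 10.0, 15.8 and 20.7 and 36.5, 33 and 42, with 1.41 ± 0.26 (adjusted p = 0.0148). Mcm2 and Mcm3 had 24.2, 19.1 and 25.6 and 30.4, 29.1 and 40.7 RNA CPM in M, and TE changes of 1.44 ± 0.31 (adjusted p = 0.0395) and 1.44 ± 0.26 (adjusted p = 0.014). The RPFs of each of these genes had risen further than the RNA.

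These TE counts leaned on single WT libraries. Without WT mouse 3 of day 4, 4 of the BM calls and 1 of the M calls were left in number, without WT mouse 2 the counts were 6 and 5, and without M mouse 1 of day 4 M had 2. Mcm2, Mcm3, Mcm4 and Pole were called in BM in each of 12 alternative fits, including those without single mice, whereas Mcm5, Fen1 and Rrm2 were called in 6 of 12.

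**Figure D3:**
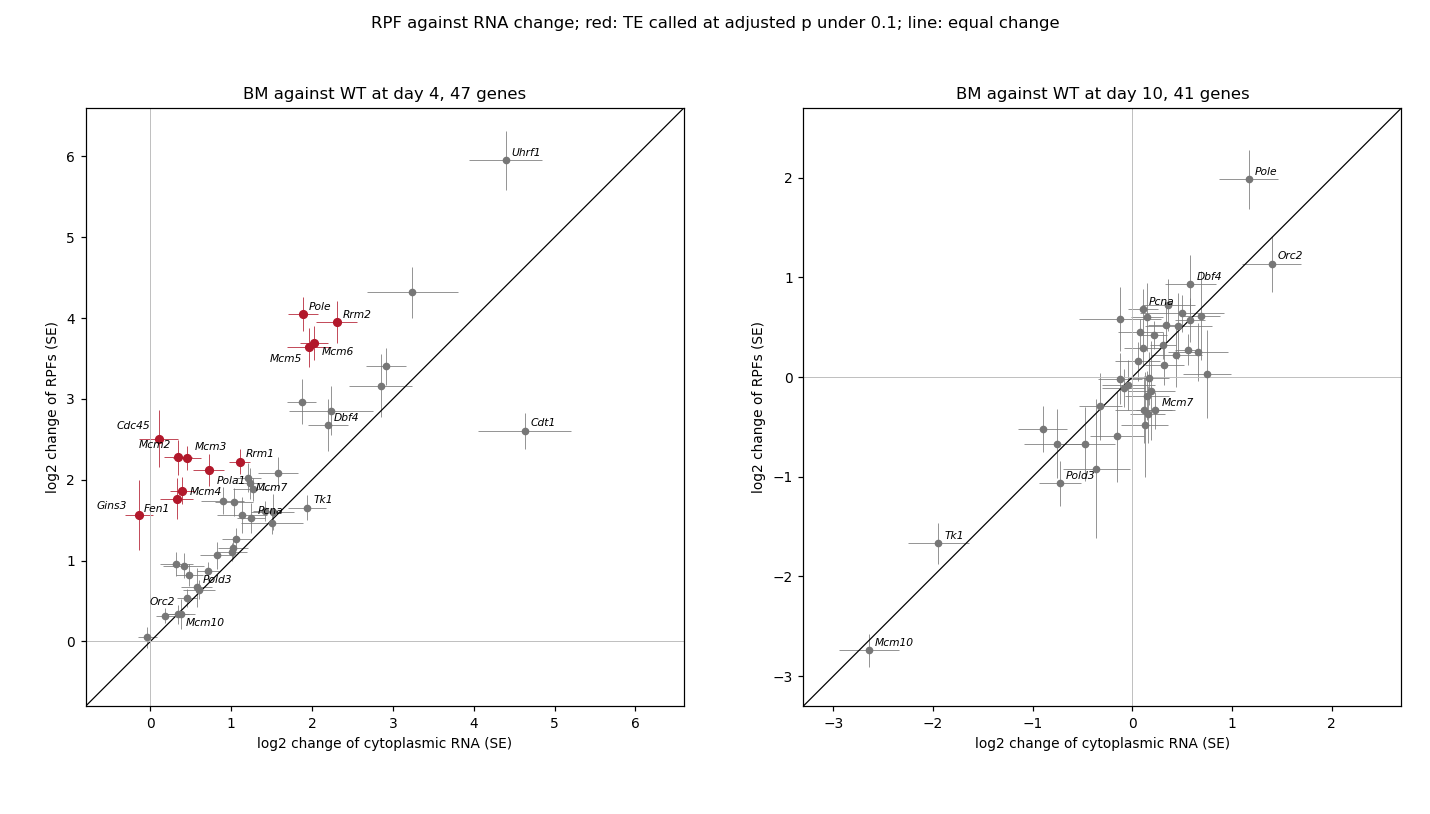
Each point is a replication gene, with the log2 change of cytoplasmic RNA on the horizontal axis and that of RPFs on the vertical axis, BM against WT of the same day, and bars of 1 SE from 3 mice per group. The line marks equal change, and red points are genes called for TE. At day 4, 42 of 47 genes lie above the line and 12 are red, and at day 10, 19 of 41 lie above it and none is red.

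At day 10 about as many replication genes were called in B as in M livers. In WT, 3 of 45 genes were higher at day 10 than at day 4 (Gmnn, Mcm10 and Tk1, background 2.17%), and this count was 0 without WT mouse 1 or mouse 2 of day 4 or without WT mouse 3 of day 10. In M against WT at day 10, 24 of 49 genes were called higher and 0 lower (background 10.6%), with a median log2 change of 0.71, and 21 of 44 without the 5 genes that passed the filter in M only (Cdc45, Cdc6, Chaf1a, Gins2 and Uhrf1). In B, 23 of 48 were called higher (background 13.1%) and 1, Tk1, lower (background 12.1%), with a median of 0.42, and 19 of 44 were higher without the 4 let in through B (Cdc45, Cdc6, Gins2 and Uhrf1). The M count was 11 without WT mouse 1 and 7 without WT mouse 3 of day 10, and the B count, 24 in all, was 14 without that mouse 3. Markers of other cells moved too. In M at day 10, 5 of 8 endothelial, 4 of 8 hepatocyte, 3 of 8 stellate and 3 of 4 erythroid markers tested were called lower and none of them higher. Over all genes 994 of 11300 were called lower, and 1 of 4 cholangiocyte markers tested was called higher. In B, 5 of 8 hepatocyte, 5 of 8 stellate and 3 of 8 endothelial markers were called lower, while 1 of 8 Kupffer cell and macrophage, 2 of 3 neutrophil and 2 of 5 erythroid markers tested were called higher and 1 erythroid marker lower. The part of these shifts in the M and B changes was not tested.

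Rrm2 had 10.5, 8.29 and 8.41 RPF CPM in WT, 21.2, 20.2 and 72.6 in M and 25.6, 21.9 and 37.1 in B at day 10, with both genotypes above WT in every mouse. Its log2 change was 2.05 ± 0.49 in M (adjusted p = 0.032, edgeR) and 1.62 ± 0.22 in B (adjusted p = 0.00189). Mcm6 had 10.8, 18.7 and 8.54 in WT and 31.9, 47.1 and 106 in M (2.27 ± 0.46, adjusted p = 0.0178), where mouse 3 of M was more than the other mice by far. Mouse 3 of M lay above all 3 WT mice for 50 of the 51 genes, and mice 1 and 2 for 31 and 40. Without mouse 3, 22 of 49 genes were called higher in M and 2 lower, with 12.9% and 11.6% of all genes, and 22 of the 24 calls made with it remained.

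Pole, Lig1 and Cdc6 were the other genes with the largest changes in M at day 10, at 2.23 ± 0.36 (adjusted p = 0.00868, edgeR), 1.82 ± 0.51 (adjusted p = 0.053) and 2.35 ± 0.55, where Cdc6 was let in through M only and has no p here. Pole had 4.64, 6.96 and 4.57 RPF CPM in WT and 16.4, 19.2 and 40.4 in M, Lig1 2.89, 4.09 and 2.4 and 5.05, 7.91 and 20.5, and Cdc6 0.263, 0.921 and 0.24 and 1.68, 1.91 and 3.85, all without overlap. In B, Cdc6 (2.63 ± 0.49) and Uhrf1 (2.58 ± 0.41), both let in through B only, and Lig1 (1.74 ± 0.27, adjusted p = 0.00358, edgeR) and Mcm5 (1.74 ± 0.34, adjusted p = 0.00925) led. Uhrf1 had 1.05, 3.38 and 0.842 CPM in WT and 9.26, 9.19 and 13.7 in B, Mcm5 3.5, 10.0 and 5.29 and 16.4, 18.9 and 27.4, Lig1 8.15, 9.63 and 13.9 and Cdc6 2.15, 2.79 and 4.07 in B, and none of them overlapped WT. Tk1 went the other way in B, with 16.4, 20.4 and 18.5 CPM in WT and 10.3, 10.4 and 15.8 in B (-0.60 ± 0.19, adjusted p = 0.0607). It is the salvage kinase for thymidine, and its B and WT mice did not overlap.

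Most of the replication genes that had been called higher in BM livers at day 4 were not called at day 10. The summed RPFs of the 51 genes were 596 to 667 CPM in WT and 645 to 777 in BM, against 1452 to 2210 in BM at day 4. Of 47 genes tested, 10 were called higher and 3 lower, with 24.5% and 22.3% of all genes called, so the share of replication genes called higher or lower was at or under the background. The median log2 change was 0.16. None of the 6 MCM subunits was called, and Mcm2 had 6.12, 9.01 and 4.93 CPM in WT and 9.35, 2.56 and 2.4 in BM. The 10 genes called higher were Pole, Orc2, Dbf4, Gins1, Pcna, Orc6, Orc4, Rpa1, Rrm1 and Orc5, and those lower were Mcm10, Tk1 and Pold3.

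The origin recognition complex was thus the functional group with the most calls in BM at day 10, 4 of 5 tested, where it had the smallest median change at day 4. Orc2 (chromosome 1, 58497840 to 58544270, GRCm39) had 4.55, 4.3 and 5.29 RPF CPM in WT and 6.85, 11.4 and 13.1 in BM, which did not overlap (1.14 ± 0.28, adjusted p = 0.0162, edgeR). Orc4 rose by 0.57 ± 0.22, with mouse 1 inside the WT range, and Orc6 by 0.64 ± 0.19. Orc2 RNA went from 9.12, 5.68 and 8.61 to 12.9, 24.3 and 25 CPM (1.4 ± 0.29, adjusted p = 0.0065). Orc2, Orc4 and Orc6 also share exon bases with genes on the opposite strand, so their RNA is uncertain.

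Pole stayed up in BM at day 10, with 4.64, 6.96 and 4.57 RPF CPM in WT and 29.8, 18.5 and 16.2 in BM (1.98 ± 0.29, adjusted p = 0.0024, edgeR). Its partner Pole2 had 1.14, 1.94 and 1.32 and 1.39, 0.544 and 0.661 CPM, which overlapped, a change of -0.72 ± 0.44 that was not called. Pcna had 46.4, 55.2 and 54.8 in WT and 61.4, 90.2 and 101 in BM, no overlap, and rose by 0.68 ± 0.21 (adjusted p = 0.0352), while its RNA had a change of 0.10 ± 0.15 that was not called.

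Mcm10 (chromosome 2, 4994516 to 5017629, GRCm39) fell furthest. It had 63.6, 48.6 and 54.2 RPF CPM in WT and 8.82, 7.92 and 8.35 in BM (-2.74 ± 0.17, adjusted p = 0.000102, edgeR), and the B and M mice of that day had 31.5 to 77.9 and 46.4 to 59.2. All 3 BM mice were far under every other mouse of either day. Its RNA moved alike, from 57.8, 43.9 and 37.1 to 10.8, 6.66 and 4.42 CPM (-2.64 ± 0.30, adjusted p = 0.000325). Tk1 went from 16.4, 20.4 and 18.5 to 7.2, 4.97 and 5.29 RPF CPM (-1.67 ± 0.21, adjusted p = 0.00126) and Pold3 from 7.7, 7.98 and 8.41 to 4.88, 3.34 and 3.31 (-1.07 ± 0.22, adjusted p = 0.00898). Neither gene had a BM mouse within the range of WT.

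Mouse 1 of the day 10 BM livers stood apart. It lay above all 3 WT mice for 28 of the 51 genes and below all 3 for 7, while mice 2 and 3 lay above for 16 and 14 and below for 19 and 22. Mcm2 at 9.35 CPM and Rfc5 at 10.8 in that mouse, against 2.56 and 2.4, and 2.87 and 3.64, in mice 2 and 3 show the gap. Without it, 13 genes were called higher and 14 lower, with 33.4% and 32.9% of all genes, and all 13 calls made with it remained. The genes then added as lower included Pold1, Rfc2, Rfc3, Rfc5, Mcm2, Mcm3, Mcm7, Dnmt1, Pola1 and Prim1. Pole2 was also among the 14, but with all mice it passed the filter through WT only, where it was high. Leaving out other mice lowered the count of 13, to 5 without WT mouse 1 or mouse 3 of day 10 and to 7 without BM mouse 2. That day, 3 of 8 Kupffer cell and macrophage markers were called higher in BM and 0 lower, with summed RPFs of 899 to 970.1 CPM against 562 to 785 in WT. Of 8 hepatocyte markers, 2 were called higher and 5 lower, of 8 stellate 1 and 5, of 8 endothelial 1 and 4, and of 4 neutrophil markers tested 2 and 1. The 7 erythroid markers summed to 509.8 to 2246 CPM in BM against 987 to 1158 in WT. Their part in these changes was not tested.

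**Figure D4:**
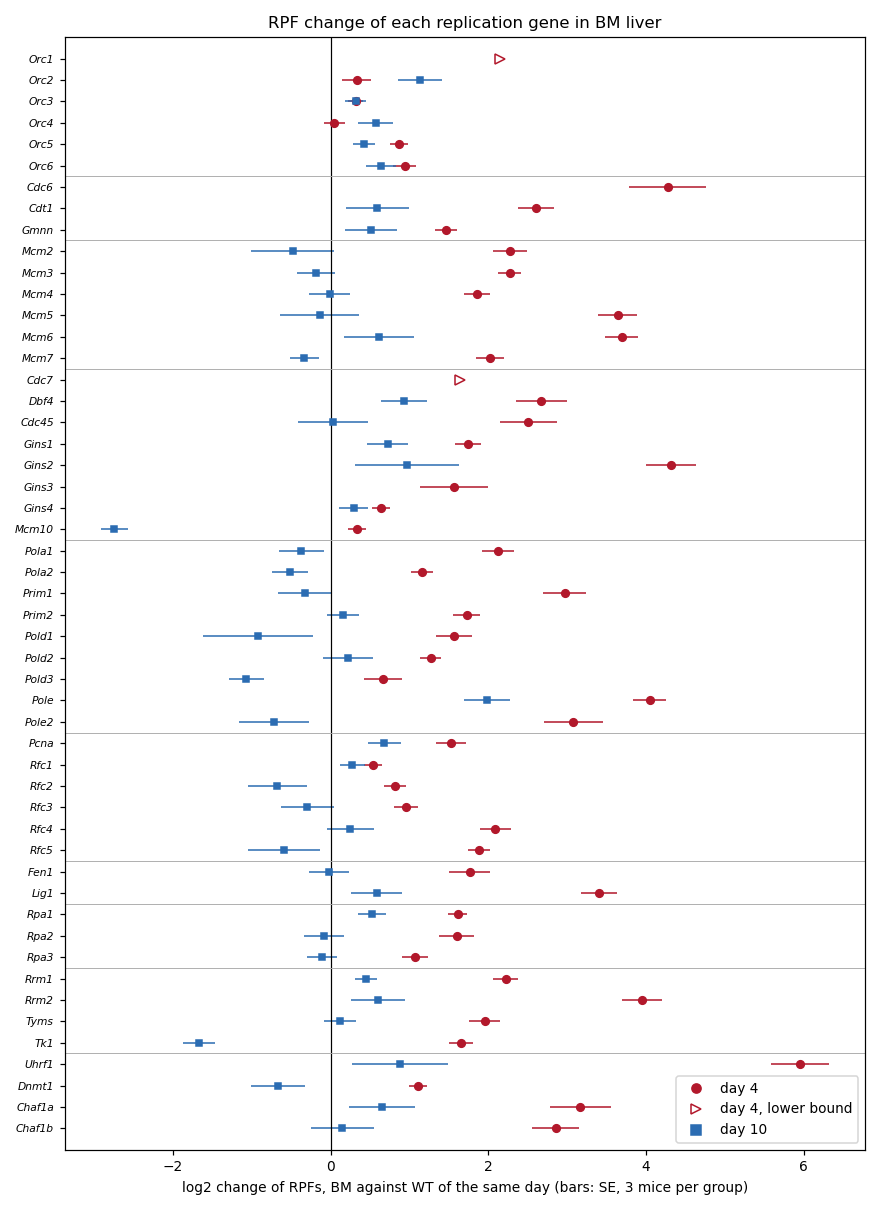
Points give the log2 RPF change of each replication gene in BM against WT of the same day, red at day 4 and blue at day 10, with bars of 1 SE (3 mice per group). Open triangles are lower bounds for Orc1 and Cdc7, whose WT libraries held at most 3 counts, and genes not tested on a day have no point. The red marks lie to the right of 0, with a median of 1.77 when Orc1 and Cdc7 stand at their bounds, and the blue points scatter about a median of 0.16, with Mcm10 far to the left.

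A contrast over the 12 mice of WT and BM set the BM change at day 10 against that at day 4. For 45 of 51 genes the BM effect was lower at day 10 and for 1, Orc2, it was higher (0.81 ± 0.34, adjusted p = 0.0984, edgeR), against 18.6% lower and 17.2% higher over all genes. Without the 10 genes that passed the day 4 filter in BM only, 35 of 41 were lower and 1 higher, and the median difference was -1.76. Among the 41, Mcm5 (-3.75 ± 0.61) and Rrm2 (-3.33 ± 0.47) had the largest falls. In RNA, 26 of 47 were lower and 2 higher (backgrounds 16.6% and 13.4%), or 21 and 2 of 39 without the genes let in through BM at day 4. In TE, 3 of 47 were lower, Gins3 (-3.59 ± 0.69), Cdc45 (-3.09 ± 0.71) and Mcm3 (-2.13 ± 0.47), with a background of 0.246%. Gins3 and Cdc45 had passed the RPF filter of day 4 in BM only, and of the 36 genes not let in that way only Mcm3 was called. At an unadjusted p under 0.05 there were 13 of 47, against 7.25% of all genes. The TE count was 8 with both libraries of a mouse paired (1.21% of all genes lower), 16 without BM mouse 1 of day 10 (where 7.81% of all genes were called lower), 0 without WT mouse 2 of either day, and 1 without WT mouse 3 of day 4, WT mouse 1 of day 10, or any 1 of BM mice 1 and 3 of day 4 and 2 and 3 of day 10. In RPFs, 6 of 8 Kupffer cell and macrophage markers and 3 of 4 neutrophil markers tested were called higher in this contrast and none lower. Of 8 hepatocyte markers 3 were higher and 2 lower, of 8 stellate 2 and 1, of 8 endothelial 1 and 1, and of 6 erythroid 2 and 1. The part of these markers in the fall was not tested.

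For M the same contrast called 1 of 49 genes, Mcm10, lower in RPFs (background 0.546%) and 2 of 47, Mcm10 and Cdt1, lower in RNA (background 0.735%). Cdt1 passed the day 4 RNA filter through M only, and of the 41 genes not let in that way 1, Mcm10, was called. The RPF count was 15 without M mouse 3 of day 10, and 0 without WT mouse 1 of day 4, M mouse 1 of day 4 or M mouse 1 of day 10, and the RNA count lay between 0 and 4 without single mice. The shares of all genes called in these fits are not given here, so the 15 cannot be set against a background. At day 10, BM was called lower than M for 17 of 48 genes and higher for 1, Orc2 (backgrounds 16.7% and 16.0%), with a median log2 difference of -0.74. Cdc45, Cdc6 and Gins2 passed the filter in M only, where they were high, and without them 15 of 45 were called lower. The 18 calls became 33 without BM mouse 1, when 30.5% of all genes were called higher and 28.6% lower, 6 without M mouse 3, with 12.5% and 14.0%, 8 without M mouse 2, and 5 without BM mouse 2 or mouse 3 of that day. The shares over all genes are not given here for the fits without M mouse 2, BM mouse 2 or BM mouse 3. Between BM and M, 4 of 8 Kupffer cell and macrophage markers and 3 of 4 neutrophil markers tested were called higher in BM, 2 of 8 endothelial markers higher, and 2 of 8 hepatocyte markers higher and 4 lower, and their part in the difference was not tested.

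Day 10 RNA gave fewer calls than RPFs in M and B. In WT, 2 of 41 genes, Tk1 and Mcm10, had more RNA at day 10 than at day 4 (background 1.09%), a count that lay between 0 and 2 without single mice. In M, 8 of 43 genes were called higher and 0 lower (background 8.53%), and in B, 8 of 44 higher and 0 lower (background 8.14%). Without genes that passed the filter only through the mutant group, among them Uhrf1 in M and Uhrf1 and Gins2 in B, 7 of 40 were called in M and 6 of 40 in B. Without WT mouse 1 or mouse 3 of day 10 the M count was 4, and the B count 3 and 2. Uhrf1 had 0.622, 2.15 and 0.492 RNA CPM in WT, 3.77, 3.0 and 7.42 in M (2.06 ± 0.53) and 2.43, 2.7 and 7.17 in B (1.85 ± 0.59). Mcm6 had 14.5, 18.8 and 17.5 in WT, 31, 34.5 and 74.2 in M (1.47 ± 0.30, adjusted p = 0.0114, edgeR) and 29.9, 34.9 and 38.4 in B (1.03 ± 0.17, adjusted p = 0.00234). Mcm5 had 7.26, 9.01 and 6.15 in WT, 11.1, 14.4 and 20.6 in M (1.04 ± 0.25, adjusted p = 0.025) and 12.5, 11.5 and 17.7 in B (0.89 ± 0.24, adjusted p = 0.0321). For these 3 genes no M or B mouse overlapped WT. Pole (1.09 ± 0.30, adjusted p = 0.0424, with 5.6, 13.3 and 13.5 in WT and 17.3, 20.6 and 30.2 in M) and Rpa1 (0.76 ± 0.13, adjusted p = 0.00487, with 30.5, 36.2 and 39.1 and 53, 58.5 and 67.2) followed in M. Gins2 (2.06 ± 0.54, with 0.207, 1.18 and 0.738 in WT and 2.63, 1.98 and 4.48 in B) and Lig1 (1.10 ± 0.30, adjusted p = 0.0365, with 3.52, 4.11 and 3.2 and 6.88, 5.76 and 10.8) followed in B.

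In BM RNA at day 10, 7 of 42 genes were called higher (Orc2, Pole, Cdc45, Mcm6, Orc4, Rfc1 and Orc3) and 5 lower (Mcm10, Tk1, Pola2, Dnmt1 and Pold3), with backgrounds of 22.9% and 22.8%, so both shares were under the background. Without Lig1 and Tk1, let in through WT only, 4 of 40 were lower. Pole RNA was 26.7, 21.8 and 24.4 CPM in BM (1.17 ± 0.29, adjusted p = 0.0145, edgeR). Tk1 RNA, which passed the filter through WT only, went from 11.8, 11 and 10.1 to 4.18, 2.3 and 1.82 (-1.95 ± 0.30) and Pold3 RNA from 12.2, 9.99 and 11.8 to 7.96, 5.74 and 6.76 (-0.73 ± 0.21, adjusted p = 0.0268). RPFs and RNA of Mcm10, Pold3, Orc2, Pole and Orc4 were thus called in the same direction. Pola2, a subunit of polymerase α, fell in RNA from 10.2, 11.6 and 13 to 7.76, 6.2 and 4.42 CPM (-0.90 ± 0.25, adjusted p = 0.0203). Dnmt1 RNA went from 19.5, 21.4 and 11.8 to 15.1, 8.73 and 7.02 (-0.76 ± 0.32, adjusted p = 0.0954). Between BM and M at day 10, 7 of 44 genes had less RNA in BM and 2, Orc2 and Orc4, more (backgrounds 16.6% and 16.3%). Without Lig1, Tk1 and Uhrf1, let in through M only, 6 of 41 had less. The 9 calls became 16 without BM mouse 1 and 5 without M mouse 2, M mouse 3 or BM mouse 3.

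No replication gene was called for TE at day 10 in BM, M or B by edgeR or DESeq2, where 0.115% of all genes were TE up in BM. At an unadjusted p under 0.05 there were 0 of 41 in BM, 1 of 43 in M and 4 of 43 in B, against 9.99%, 3.22% and 5.25% of all genes. With both libraries of a mouse paired, 0, 1 and 5 were called, against 5.21%, 0.325% and 2.60% of all genes. Without BM mouse 1, however, 5 were called in BM: Pcna up (0.79), and Pold1 (-2.28), whose RNA passed the filter through BM only, Mcm2 (-1.66), Rfc5 (-1.10) and Pola1 (-0.95) down, when 10.4% of all genes were called TE up and 11.1% down, so both shares were under the background. Without M mouse 3, 1 of 43 was called in M, towards TE up, where 0.104% of all genes were called TE up and 1.13% down.

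Levels of different genes were set side by side per coding length, as RPF CPM per 1000 counted codons. In WT at day 4, Pcna had the highest level, 193.8 ± 23.5 (SD, n = 3), followed by Rpa3, Rpa1, Tk1 and Gins4, and Orc1, Cdc7 and Cdc6 were lowest. In BM at day 4 the highest were Pcna (549 ± 179.7), Rrm2 (327 ± 125), Rpa1 (269 ± 44.0), Tk1 (195 ± 38) and Rpa3 (189.8 ± 33.0), and Rpa3 and Tk1 did not differ beyond their spread. The ribonucleotide reductase subunits changed places: Rrm1 stood at 31.2 ± 0.27 and Rrm2 at 21.6 ± 3.06 in WT of day 4, and at 143.5 ± 37.5 and 327 ± 125 in BM, and in BM of day 10 they were 46.0 ± 2.5 and 38.4 ± 19.4, within their spread.

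Subunits of a complex were made at unequal levels on this scale. Among the MCM subunits in WT of day 4 the RPF level was lowest for Mcm5 (6.81) and highest for Mcm7 (32.5), a 4.77-fold spread, and Mcm2 (6.88) was level with Mcm5. In BM of day 4 the lowest was Mcm2 (32.6) and the highest Mcm6 (147.9), a 4.54-fold spread, so the level rose for each subunit and the width of the range hardly moved while its order did. In BM of day 10 Mcm2 was lowest (5.45) and Mcm7 highest (29.6), and the spread in that group was 3.93-fold in mouse 1 and 9.38- and 9.31-fold in mice 2 and 3. For GINS, the group mean was lowest for Gins3 and highest for Gins4 in all 8 groups, with a spread of 26.2-fold in WT and 13-fold in BM at day 4. Gins3 had only 8, 3 and 2 RPF counts in those WT mice. The spread was 14.5-, 33.1- and 53-fold in the WT mice and 10.1-, 12.4- and 19-fold in the BM mice, which overlapped. By TPM of RNA, Gins2 was lowest in both groups.

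**Figure D5:**
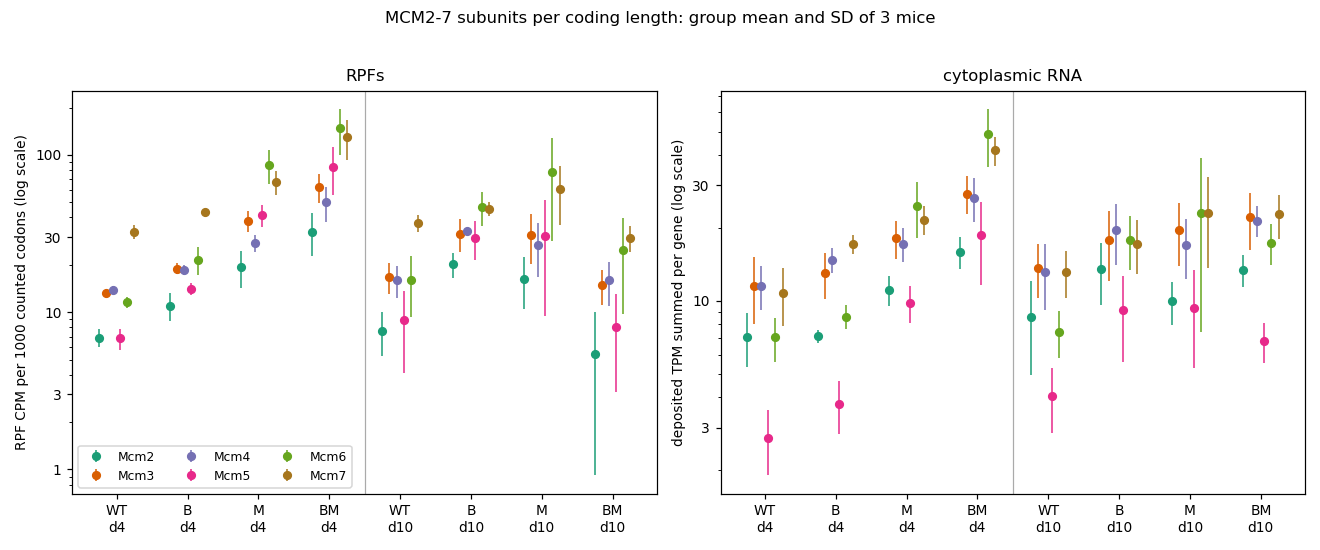
The left panel plots RPF CPM per 1000 counted codons and the right panel the deposited TPM of cytoplasmic RNA, both on log axes, for Mcm2 to Mcm7 in the 8 groups (points are means and bars SD of 3 mice). On the RPF scale Mcm5 and Mcm2 are lowest in WT of day 4 (6.81 and 6.88) and Mcm7 highest (32.5). In BM of day 4 Mcm6 is highest (147.9) and Mcm5 has left Mcm2 behind.

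Other genes of replication, taken from lists that are not members, were read in the same comparisons. Of 33 further licensing and fork genes tested, 29 were called higher in BM RPFs at day 4 and 1 lower (backgrounds 26.2% and 24.7%). Of these, 7 (Asf1b, Chtf18, Chtf8, Clspn, Dscc1, Dtl and Ticrr) passed the filter in BM only, where they were high, and 22 of the other 26 were called higher. Clspn and Dtl, which serve the replication checkpoint and the destruction of Cdt1, had log2 changes of 4.49 ± 0.50 and 4.41 ± 0.34, and the gene called lower was Pole4 (-0.29 ± 0.12), a small subunit of polymerase ε. Ticrr and Chtf18 had at most 1 and 3 counts in each WT mouse, and the BM mice had 2.2, 1.11 and 1.39 and 8.74, 4.13 and 4.57 RPF CPM. In M, 15 of 30 were called higher and 1 lower (backgrounds 18.5% and 14.7%), or 10 and 1 of 25 without those let in through M. In B, 2 of 26 were higher, near the background of 6.21%, and in BM at day 10, 4 of 27 were higher and 2 lower, under backgrounds of 24.5% and 22.3%.

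Of 14 other nucleotide supply genes, 8 were called higher and 2 lower in BM RPFs at day 4, where 26.2% and 24.7% of all genes were, or 7 and 2 of 13 without Dctd, let in through BM only. Dut, which removes dUTP, rose by 2.45 ± 0.20 and Dtymk by 1.33 ± 0.13, and Samhd1, which breaks down deoxynucleotides, fell by 0.34. Dctd had no count in WT at day 4 and 1.16, 0.918 and 0.86 CPM in BM. Among the E2F and pocket proteins, 6 of 12 were called higher in BM at day 4 and 0 lower (the same backgrounds), or 5 of 11 without E2f2, let in through BM only, with Rbl1 (1.97 ± 0.17), Tfdp1 (1.33 ± 0.13) and E2f3 (1.02 ± 0.20) in front. At day 10, 3 of 11 were higher and 3 lower, near the backgrounds of 24.5% and 22.3%, and E2f8, an E2F repressor named here after its value was seen, had a log2 change of -3.82 ± 0.26 but passed the filter through WT only, as did E2f1.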

How the data were processed

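Livers of 24 mice were harvested 4 or 10 days after AAV8.TBG.Cre, and the labels gave genotype, day and mouse number but no batch. The 51 genes are set by symbol, with no measured value in the rule, but that list and the other lists were drawn up with earlier results of these data known. To make the RPF values, the authors used Cutadapt 1.18, removed rRNA, tRNA and, by their molecular identifiers, duplicates, aligned reads to 1 protein-coding transcript per gene, the most abundant (GENCODE vM27, GRCm39), and deposited raw counts over coding sequences, leaving out the first 20 and last 10 codons. Cytoplasmic RNA, depleted of rRNA, was aligned by the authors with Bowtie2 2.3.5.1, and they deposited RSEM 1.3.3 expected counts and TPM per isoform. Expected counts were summed per gene and rounded (at least 99.92% of nonzero values were whole), and the deposited TPM served only for levels. RPF transcripts absent from a library (1689 to 3019 of 16269) were taken as 0. Since duplicates were removed, an RPF count stands for a molecule. Floors of 3 counts cover counting error only. Standard errors were worked back from the edgeR fits, as the size of the log2 change divided by the square root of the F statistic. They also hold the spread between mice. How reads of near-identical copies and overlapping genes were assigned rests on the authors' alignments and was not checked here. Of the 51 genes, 15 share exon bases with a gene on the opposite strand.

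Counts were tested in R 4.3.3 with edgeR 4.0.16 (quasi-likelihood F test, TMM, filterByExpr with a minimum count of 10 and a minimum total of 15), on the mice of the groups compared, with Benjamini-Hochberg adjustment over all genes tested and calls at an adjusted p under 0.1. TE was the interaction of genotype and library type, on genes passing the filter in both. The main TE fit had no term for the mouse, so the RPF and RNA libraries of a mouse were treated as independent. Changes of effect were contrasts over 12 mice. The study used DESeq2, run here (1.42.0) as an alternative. Other alternatives were median-of-ratios size factors, no filter, at least 10 counts in every library, RNA of the RPF transcript alone, the mouse number as a block, and leaving out each mouse. The edgeR tests of RPFs, RNA and TE were run on simulated counts for BM against WT at day 4, and the other comparisons and alternatives were not. The deviations of RPFs and RNA of the same mouse from their group means correlated in 24 of 24 mice (r from 0.243 to 0.649 over 9366 genes), and both libraries came from the same mouse. For each comparison with WT, the 5 called genes with the largest change, no overlap between groups and over 3 counts in at least 1 mouse of the lower group are given in full, with those called in the opposite direction, but with no p where the filter was passed only through the mutant group. A gene at or under 3 counts in every mouse of the lower group gets a lower bound, with 3 counts per library. Gene positions are from GENCODE on GRCm39, promoters from RefSeq on GRCm38.p6.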

Additional observations from a re-analysis of the deposited data

Results flagged for a closer look

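The BM change differed between the days, by a contrast over 12 mice, for 46 replication genes of 51 in RPFs, 28 of 47 in RNA and 3 of 47 in TE, and higher and lower calls over all genes were 17.2% and 18.6%, 13.4% and 16.6%, and 0.0638% and 0.246%. In RPFs the contrast (day 10 minus day 4, log2) was -5.04 for Uhrf1, -5.01 for Cdc6 and -3.78 for Pole2, and in TE it was -3.59 for Gins3, -3.09 for Cdc45 and -2.13 for Mcm3. Of these, all but Mcm3 passed the RPF filter of day 4 only through BM, where they were high, and without genes let in that way the counts were 36 of 41, 23 of 39 and 1 of 36. The M change differed between the days for 1 gene in RPFs, Mcm10, and for 2 in RNA, Cdt1, which passed the day 4 RNA filter through M only, and Mcm10. At day 4 the BM change differed from the B and M changes added together for 6 of 51 genes in RPFs and 6 of 48 in RNA, 5 above and 1 below in each, where 8.40% of all genes were above and 11.3% below in RPFs and 5.56% and 7.27% in RNA, and in RPFs the contrast was 1.68 for Dbf4, 0.96 for Pold3 and -0.965 for Mcm10. Mcm10 thus stood against most of the set in several comparisons, while Cdt1, Cdc6 and Uhrf1 had few counts in WT livers.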

How the results depend on the processing

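Over 475 called values of single genes, 5064 of the values under the alternatives kept direction and call, 668 kept the direction and lost the call, and 0 changed direction. Calls for BM and M against WT at day 4 in RPFs and RNA, and for the BM change between days in RPFs and RNA, stayed within 1.5 times their number under every alternative. With DESeq2, RNA calls were 1 for B at day 4 and 1 between WT days, the M change between days gave 2 in RPFs and 1 in RNA, and the BM change between days gave 5 in TE. With at least 10 counts in every library there were 7 TE calls for BM at day 4, 0 for the BM change between days in TE and 1 for the M change between days in RNA, over fewer genes tested, and with no filter 15 RNA calls for M at day 10. With the replicate block, where RPF and RNA libraries of a mouse are paired, TE calls were 1 for B at day 4, 1 for BM against M at day 4, 1 for M at day 10, 5 for B at day 10, 1 between WT days and 8 for the BM change between days. Across genotypes, 8 of 36 same-numbered pairs of mice correlated over 0.1 in RPFs and 11 of 36 in RNA. Among other-numbered pairs 10 of 72 did in RPFs and 7 of 72 in RNA. The median r of same- and other-numbered pairs was -0.0084 and 0.00498 in RPFs and 0.0528 and -0.0123 in RNA. Whether the mouse number marks a batch was not tested. The replicate block gave 10 RPF calls for BM against M at day 10 and 0 RNA calls between WT days. It changed no other count by more than 1.5 times. Apart from fewer genes or mice in the fit, the cause of these moves was not tested.

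Leaving out 1 mouse at a time gave these ranges of calls, which are listed without the share of all genes called in each fit. In RPFs they were 47 to 49 (BM), 40 to 43 (M), 8 to 15 (B) and 37 to 47 (BM against M) at day 4, and 5 to 27 (BM), 7 to 24 (M), 14 to 25 (B) and 5 to 33 (BM against M) at day 10. They were 0 to 3 between WT days, 41 to 47 and 0 to 15 for the BM and M changes between days, and 2 to 11 for BM against B and M added. In RNA, in the same order, they were 32 to 42, 20 to 28, 0 to 1 and 15 to 31 at day 4, 8 to 15, 4 to 10, 2 to 9 and 5 to 16 at day 10, and 0 to 2, 24 to 36, 0 to 4 and 3 to 8. In TE they were 4 to 11 (BM) and 1 to 9 (M) at day 4, 0 to 5 (BM), 0 to 1 (M) and 0 to 6 (BM against M) at day 10, 0 to 16 and 0 to 1 for the BM and M changes between days, and 0 for the rest. RNA depth, lowest in BM at day 10 (3254141 to 4060257 counts), limits what TE can show for genes with few counts.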
